A study of Rattus norvegicus with 6 samples.

Results

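The 10 mature miRNAs described here belong to miR-17-92 and its paralogues, and they were taken by name from the 775 miRNAs counted in small RNA libraries of rat brain. Cluster and seed decided the choice, which was made with earlier results of these data known. They are the 6 guide strands of miR-17-92 (rno-miR-17-5p, rno-miR-18a-5p, rno-miR-19a-3p, rno-miR-20a-5p, rno-miR-19b-3p and rno-miR-92a-3p), the 3 of miR-106b-25 (rno-miR-106b-5p, rno-miR-93-5p and rno-miR-25-3p) and rno-miR-92b-3p. The 6 libraries came from male Sprague–Dawley rats, bought at 7 weeks of age. Both common carotid arteries had been tied under pentobarbital sodium anaesthesia (30 mg/kg). This 2-vessel occlusion (2VO) is a model that lowers blood flow to the whole forebrain for weeks. The 3 libraries of the 2VO group came from rats that were given the vehicle alone by gastric tube for 4 weeks (sodium carboxymethylcellulose, 0.5%, at 5 mL/kg), and the 3 of the tilianin group from 2VO rats that took 40 mg/kg of tilianin, a flavonoid glycoside, daily in the same vehicle. All 6 libraries therefore carried the occlusion, and sham-operated rats were not analysed here. The labels give the tissue as brain, and the study's figure legend for the miRNA comparison names cortical tissue. The labels do not say whether a library is 1 rat, so p-values measure the spread between these libraries, which may be technical.

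miR-17-92 is a polycistron: 1 primary transcript carries several hairpins, each of which is cut out and gives a short guide RNA that loads into Argonaute and represses mRNAs pairing with its seed, the bases near its 5′ end. The cluster is best known as an oncogene (oncomiR-1) and as a regulator of cell cycle entry, B-cell development and, in the brain, the expansion of neural progenitors. Vertebrate genomes hold paralogues of it, among them miR-106b-25, which sits in an intron of the replication licensing gene Mcm7, and an X-linked cluster.

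The sequences show why the 10 miRNAs are grouped by seed and how little separates some of them. They were read from RefSeq (GRCr8), and capitals mark bases 2 to 8, the seed. The miR-17 family, whose known targets include E2F factors and the cell cycle inhibitor Cdkn1a, has 4 members here, and miR-20b-5p of the X-linked cluster is printed beside them:
rno-miR-17-5p: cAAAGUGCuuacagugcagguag
rno-miR-20a-5p: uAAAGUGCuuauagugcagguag
rno-miR-106b-5p: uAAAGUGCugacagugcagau
rno-miR-93-5p: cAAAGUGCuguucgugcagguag
rno-miR-20b-5p: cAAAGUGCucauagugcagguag

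Counted from the 5′ end, miR-17-5p and miR-20a-5p differ at 2 of 23 positions, miR-17-5p and miR-93-5p at 4 of 23, and miR-17-5p and miR-106b-5p at 3 of the 21 that both have. miR-18a-5p is close to this family outside its seed, but its seed differs:
rno-miR-18a-5p: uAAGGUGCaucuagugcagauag

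The members of the miR-19 pair differ at 1 of 23 positions:
rno-miR-19a-3p: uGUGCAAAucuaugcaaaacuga
rno-miR-19b-3p: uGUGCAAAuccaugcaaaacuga

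The miR-92 group includes miR-92a-3p, a known inhibitor of blood vessel growth in endothelial cells, and miR-92b-3p, known from neural progenitors:
rno-miR-92a-3p: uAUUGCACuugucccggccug
rno-miR-25-3p: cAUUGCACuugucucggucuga
rno-miR-92b-3p: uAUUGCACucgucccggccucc

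miR-92a-3p differs from miR-25-3p at 3 and from miR-92b-3p at 2 of the 21 positions compared. Reads with sequencing errors or trimmed ends could be divided between such close sequences by the counting, which was not tested. miR-32-5p and miR-363-3p share the seed of the miR-92 group, and both had 0 counts in every library.

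In GRCr8, the 6 hairpins of miR-17-92 give mature sequences between chr15:98587861-98588622 on the plus strand, a span of 762 bases. miR-106b-25 lies at chr12:22156652-22157123 on the minus strand, with 3 hairpins in 472 bases, inside Mcm7, which is on the same strand. miR-92b lies at chr2:176931663-176931725, also on the minus strand. The X-linked cluster lies at chrX:137342788-137343637, minus strand, as placed by the 5 hairpins looked up (Mir106a, Mir20b, Mir19b2, Mir92a2 and Mir363). miR-17-5p, miR-19b-3p and miR-92a-3p are each made from 2 identical copies, 1 in the plus-strand cluster on chromosome 15 and 1 in the minus-strand cluster on chromosome X, so their counts cannot be split between the 2 loci. RefSeq gives the X-linked hairpin gene Mir106a as a source of miR-17-5p. The build used to make the counts is not given in the sources used here, and these positions are those of RefSeq.

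The total count of a library lay between 7175872 and 13198776, and 472 to 498 miRNAs had at least 1 count. Values below are CPM, counts divided by library size after TMM scaling, and 3 counts, taken as the limit that a count of 0 allows, correspond to 0.232 to 0.462 CPM. No molecular identifiers are mentioned, so this limit covers counting error only. Tilianin replicate 2 stood apart from the others, with Spearman correlations of 0.936 to 0.957 to them over the tested miRNAs. Some of the values below are also given without it. The neuronal miR-124-3p was high in every library (55804 to 98573 CPM).

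The 10 miRNAs fell into 3 levels, which did not follow the seed. miR-19b-3p, miR-17-5p, miR-20a-5p and miR-92a-3p were present at 44.2 to 90.9 CPM in every library, ranks 179 to 185 of the 775 listed miRNAs by mean. miR-19a-3p and miR-18a-5p of the same transcript were lower, at ranks 271 and 349. All 4 miRNAs from outside miR-17-92 were at or next to 0. This is an order of reads counted per mature miRNA of 21 to 23 bases, with no scaling by length.

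For miR-19b-3p, 2VO replicates 1, 2 and 3 held 73.4, 68.1 and 48.9 CPM, and tilianin replicates 1, 2 and 3 held 53.2, 75.2 and 74.3 CPM. In the same order of libraries, miR-17-5p had 61.1, 62.7 and 56.8 CPM, then 44.2, 71.6 and 73.7 CPM. For both, the lowest treated library lay within or below the 2VO values and the highest above them, so the groups overlapped. miR-20a-5p, the nearest sequence to miR-17-5p among the 10, had 60.5, 65.2 and 49.3 CPM, then 46.4, 75.5 and 73.0 CPM. miR-92a-3p had 49.6, 61.2 and 49.8 CPM, then 64.4, 90.9 and 54.6 CPM. Tilianin replicates 1 and 2 were above every 2VO library for miR-92a-3p and replicate 3 was not. Over all 6 libraries the neighbours among these 4 miRNAs were not separated beyond their spread. The mean difference on the log2(CPM + 1) scale was 0.08 ± 0.177 (SD) between miR-19b-3p and miR-17-5p and 0.01 or less between the next 2 pairs (exact two-sided paired permutation tests, p = 0.281, 0.906 and 0.938).

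For miR-19a-3p the 2VO libraries held 11.1, 11.7 and 7.12 CPM, and those of the tilianin group 7.82, 9.70 and 11.0 CPM, so miR-19b-3p had 5.85 to 7.75 times its counts. miR-92a-3p, the next miRNA above it in the order, exceeded miR-19a-3p by 2.54 ± 0.411 on the log2(CPM + 1) scale (SD, n = 6). miR-18a-5p had 1.42, 2.47 and 1.29 CPM, then 2.06, 3.70 and 2.44 CPM, on 10 to 32 counts per library, and lay 1.75 ± 0.379 below miR-19a-3p on that scale. Both steps, and that of 1.57 ± 0.440 from miR-18a-5p down to miR-106b-5p, had the same direction in 6 of 6 libraries. Each had an exact two-sided paired permutation p of 0.0313, the smallest that 6 libraries can give. After Benjamini-Hochberg adjustment over the 9 neighbouring pairs it was 0.0938, so that none passed 0.05. The pairs were taken from the order of mean level in these same libraries, so the tests are no independent evidence for that order. The last step ends at miR-106b-5p, which had 3 counts over the 6 libraries. Within the 2VO libraries alone the order of the 10 was the same. Within the tilianin libraries miR-92a-3p came first and miR-17-5p after miR-20a-5p, with 5 of the 10 at the same rank. There miR-93-5p, miR-92b-3p and miR-25-3p were tied at 0, so the ranks among them are arbitrary.

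**Figure D1:**
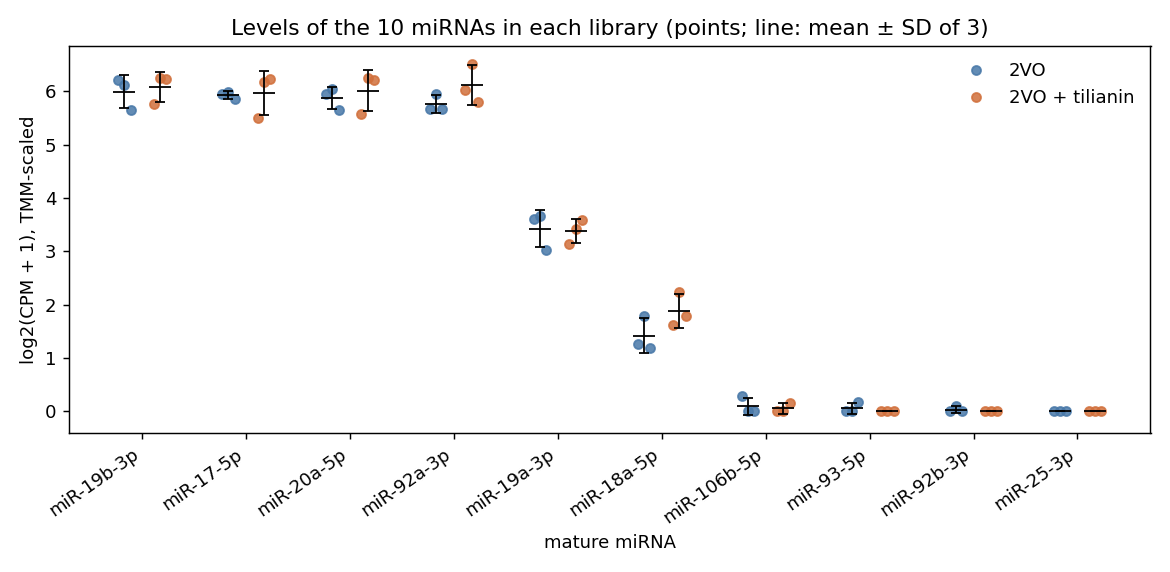
Level of each of the 10 miRNAs on the log2(CPM + 1) scale in the 3 libraries of the 2VO group and the 3 of the tilianin group (points), with the mean and SD of each group, ordered by mean level. The first 4 overlap near 60 CPM, miR-19a-3p and miR-18a-5p lie below them, and the other 4 are at or next to 0.

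The guide strands of miR-106b-25 and miR-92b were nearly absent from the counts. miR-106b-5p had 2 counts in 2VO replicate 1, 1 in tilianin replicate 3 and 0 in the other 4 libraries. miR-93-5p had 1 count in 2VO replicate 3, miR-92b-3p had 1 in 2VO replicate 2, and both were at 0 elsewhere. miR-25-3p had 0 counts in every library. The 3 guide strands of miR-106b-25 together gave 0 to 2 counts per library, whereas those of miR-17-92 gave 1648 to 3517. Set against a floor of 3 counts per library, miR-92a-3p was at least 128-fold higher than miR-25-3p, which has its seed, in the library where this bound was lowest, and at least 264-fold higher where it was highest. None of the 4 passed the minimum of 10 counts in total. No difference between the groups was therefore tested for them, and none was detectable on so few counts.

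What these 4 share, besides family, is the strand of their genes. All 4 are encoded on the minus strand of GRCr8 alone, whereas miR-18a-5p, miR-19a-3p and miR-20a-5p are encoded on the plus strand and the other 3 on both. Of the 775 listed miRNAs, 689 could be matched by name to RefSeq positions. Of those on the plus strand alone, 309 of 391 (79.0%) had at least 10 counts in total, with a median total of 626 counts. Of those on the minus strand alone, 87 of 288 (30.2%) did, and 152 (52.8%) were at 0 in all libraries, against 12.0% of the plus-strand miRNAs. With a minimum of 100 counts the shares were 65.2% and 17.01%, and with the miRNAs of a single gene alone they were 78.5% and 30.0%. Both arms of a hairpin and the members of a cluster share a strand and are counted separately here, so these miRNAs are not independent.

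The chromosomes of the clusters were divided in the same way. The arms of miR-17-92 and its paralogues are among the miRNAs counted there, so these shares partly restate their own counts. On chromosome 12, which holds miR-106b-25, none of the 9 minus-strand miRNAs had 10 counts, whereas both plus-strand miRNAs had 10 or more. The minus-strand miRNAs summed to 6 counts, all from arms of miR-106b-25: miR-106b-5p (3), miR-106b-3p (2) and miR-93-5p (1). On chromosome 15, which holds miR-17-92, 8 of 11 plus-strand and 0 of 4 minus-strand miRNAs reached 10 counts. On chromosome X the numbers were 26 of 31 and 25 of 75. In each library 80.6% to 83.4% of the plus-strand miRNAs and 33.3% to 37.2% of the minus-strand miRNAs had a count, and the minus strand took 8.02% to 9.77% of the matched counts, so all 6 libraries were alike in this. The division was not complete, since minus-strand miRNAs chosen after their values were seen, miR-24-3p (1490025 counts over the 6 libraries) and miR-27b-3p (700867), were abundant. This comparison was itself made after the counts were seen. Its cause was not tested, so the near absence of miR-106b-5p, miR-93-5p, miR-25-3p and miR-92b-3p is a statement about the deposited counts and not about the tissue. In bulk tissue, moreover, fewer cells of a type cannot be told apart from less RNA per cell.

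**Figure D2:**
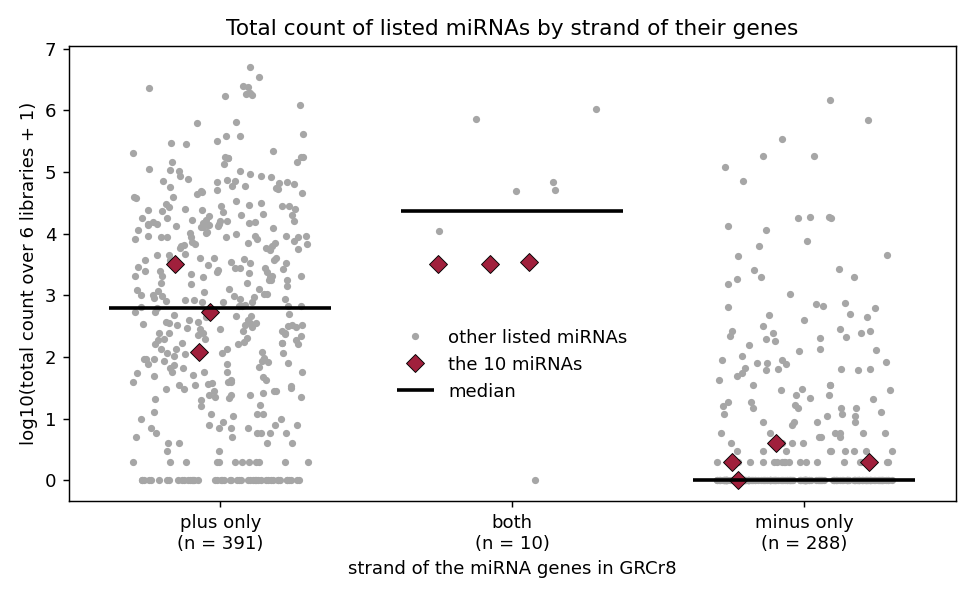
Total count over the 6 libraries, as log10(total + 1), of the 689 matched miRNAs, by the strand of their genes in GRCr8, with the median of each class (bars) and the 10 miRNAs marked (diamonds). The diamonds in the minus-only class lie between 0 and 3 counts and those of the other 2 classes between 118 and 3522 counts.

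Tilianin was compared with 2VO to ask whether treatment changed the levels. None of the 6 tested miRNAs of miR-17-92 rose or fell at the study's criterion (a log2 fold change beyond 1 in either direction together with an unadjusted p under 0.05), against 26 of the 454 tested miRNAs (5.73%). By edgeR's quasi-likelihood test 0 of 6 had an unadjusted p below 0.05, where 33 of 454 (7.27%) did, and the counts were also 0 by DESeq2's Wald test, limma-voom and edgeR's exact test. The values of the 2 groups overlapped for all 6, whereas they did not for 44 of 454 (9.69%). A count of 0 among 6 is near these shares, and nothing particular to the cluster is read from it. Across all tested miRNAs 0 had a Benjamini-Hochberg adjusted p under 0.05 in the quasi-likelihood test of edgeR, where the smallest was 0.397, whereas 3 did by DESeq2's Wald test, 3 by edgeR's exact test and 4 by the quasi-likelihood test without tilianin replicate 2.

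miR-92a-3p averaged 53.5 ± 6.64 CPM over the 2VO libraries and 69.9 ± 18.8 CPM over the treated ones (SD, n = 3 each). The log2 difference was 0.38 with a standard error of 0.239 and a 95% interval of -0.18 to 0.95 (edgeR's quasi-likelihood test, Benjamini-Hochberg adjusted p = 0.746). Without tilianin replicate 2 it was 0.17. The lowest of the cluster's guide strands, miR-18a-5p, averaged 1.73 ± 0.646 and 2.73 ± 0.855 CPM (SD, n = 3 each). Its log2 difference was 0.63, with a standard error of 0.411, a 95% interval of -0.34 to 1.60 and a Benjamini-Hochberg adjusted p = 0.746 by the same edgeR test. Its interval includes 0 and also values past 1, so neither is excluded. Without tilianin replicate 2 its log2 difference was 0.35, and without 2VO replicate 2 it was 1.03, still short of the criterion by its p.

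The other 4 had log2 fold changes closer to 0. miR-20a-5p was at 58.3 ± 8.18 and 64.9 ± 16.1 CPM (log2 fold change 0.15, 95% interval -0.42 to 0.73). miR-19b-3p was at 63.5 ± 12.9 and 67.6 ± 12.4 CPM (0.09, -0.47 to 0.65), and miR-17-5p at 60.2 ± 3.08 and 63.2 ± 16.5 CPM (0.07, -0.49 to 0.62). miR-19a-3p was the only one of the 6 with a lower mean in the treated group, at 9.96 ± 2.48 and 9.50 ± 1.59 CPM (-0.07, -0.73 to 0.58). The sign of the change was not stable for miR-17-5p, miR-19a-3p and miR-19b-3p, which turned when single libraries were left out. For miR-17-5p, as a fold, the interval was 0.714 to 1.54. Of the 6 intervals, 5 lay within 1 log2 unit of 0 and that of miR-18a-5p did not.

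The median log2 fold change of the 6 was 0.12, beside -0.03 over all 454 tested miRNAs, and it was 0.02 without tilianin replicate 2. That library held the highest value of 4 of the 6, and tilianin replicate 3 that of miR-17-5p. Other miRNAs moved with the same library. The Hox-cluster list (miR-10a-5p, miR-10b-5p and miR-196a-5p, known from caudal tissue) summed to 21658 CPM there, 321 and 489 CPM in the other 2 treated libraries and 89.8 to 149 CPM in the 2VO group, with 2 of 3 past the criterion. The choroid plexus list (miR-204-5p and miR-211-5p, 2 of 2 past the criterion) summed to 119 to 148 CPM without and 121 to 1073 CPM with tilianin. The erythroid list summed to 155 to 199 and 338 to 881 CPM, with miR-486 alone of its 4 past the criterion and miR-451-5p, its defining member, at 6 counts in all. The myeloid list (miR-223-3p and both arms of miR-142) summed to 326 to 456 and 457 to 746 CPM, with 1 of 3, miR-223-3p, past the criterion. Endothelial miR-126a (5372 to 8553 and 6510 to 7203 CPM) overlapped between the groups, and so did the oligodendrocyte list (18.2 to 35.3 and 17.5 to 50.4 CPM). The neuronal list (miR-124-3p, miR-9a-5p and miR-128-3p) summed to 126366 to 159150 CPM in the 2VO group, and in the treated group to 83358 CPM in replicate 2 and 142045 and 157212 CPM in the others. None of these markers was at 0 in all libraries, and their part in the values of miR-17-92 was not tested.

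**Figure D3:**
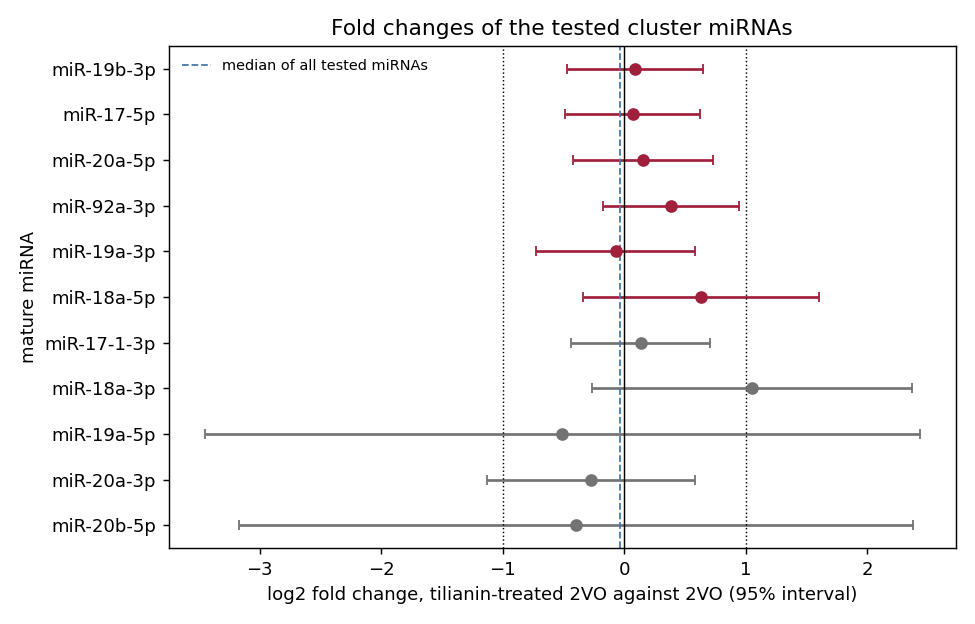
Log2 fold change of the tilianin group against the 2VO group with its 95% interval, for the 6 tested guide strands of miR-17-92 (red) and the 5 other tested miRNAs of the clusters (grey), with dotted lines at the criterion of 1 in either direction and a dashed line at the median of all 454 tested miRNAs. Every interval includes 0, and those of the 4 abundant guide strands and of miR-19a-3p end within the dotted lines.

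Summed over its 6 guide strands, miR-17-92 reached 257, 271 and 213 CPM in the 2VO libraries, then 218, 326 and 289 CPM with tilianin, or 0.0212% to 0.0306% of all counts. The means were 247 ± 30.4 and 278 ± 55.1 CPM (SD, n = 3 each), a difference smaller than the SD of the treated group. The log2 ratio of the mean sums was 0.168, and 0.0451 without tilianin replicate 2. By seed, the miR-17 family summed to 119 ± 11.2 and 128 ± 32.6 CPM, the miR-19 pair to 73.5 ± 15.3 and 77.1 ± 13.9 CPM, and the miR-92 group to 53.6 ± 6.69 and 69.9 ± 18.8 CPM. Nearly all of each sum came from the guide strands of miR-17-92. Those of miR-106b-25 and miR-92b added at most 2 counts in a library. The counts of miR-17-5p, miR-19b-3p and miR-92a-3p include any reads from the X-linked cluster, so the sums cannot be credited to a single locus.

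Within the counts of the cluster's guide strands, 4 took nearly equal parts. The counts of miR-17-5p, miR-19b-3p and miR-92a-3p include any reads from their X-linked copies, so these are not shares of a single locus. miR-19b-3p held 25.5 ± 2.84% of the cluster's counts in the 2VO group and 24.4 ± 1.35% in the tilianin group (SD, n = 3 each), miR-17-5p 24.5 ± 1.87% and 22.6 ± 2.68%, and miR-20a-5p 23.6 ± 0.455% and 23.2 ± 2.00%. miR-19a-3p held 3.98 ± 0.560% and 3.45 ± 0.430%, and miR-18a-5p 0.689 ± 0.193% and 0.974 ± 0.146%. In percentage points, the share that varied most was that of miR-92a-3p, the last hairpin of the cluster, at 19.3%, 22.5% and 23.4% in the 2VO libraries and 29.5%, 27.8% and 18.9% in the tilianin libraries. Both the highest and the lowest of these were treated libraries. The ratio of miR-92a-3p to miR-19b-3p was 0.675, 0.898 and 1.02, then 1.21, 1.21 and 0.734, so the groups overlapped here too. The ratio of miR-20a-5p to miR-17-5p stayed between 0.868 and 1.05.

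**Figure D4:**
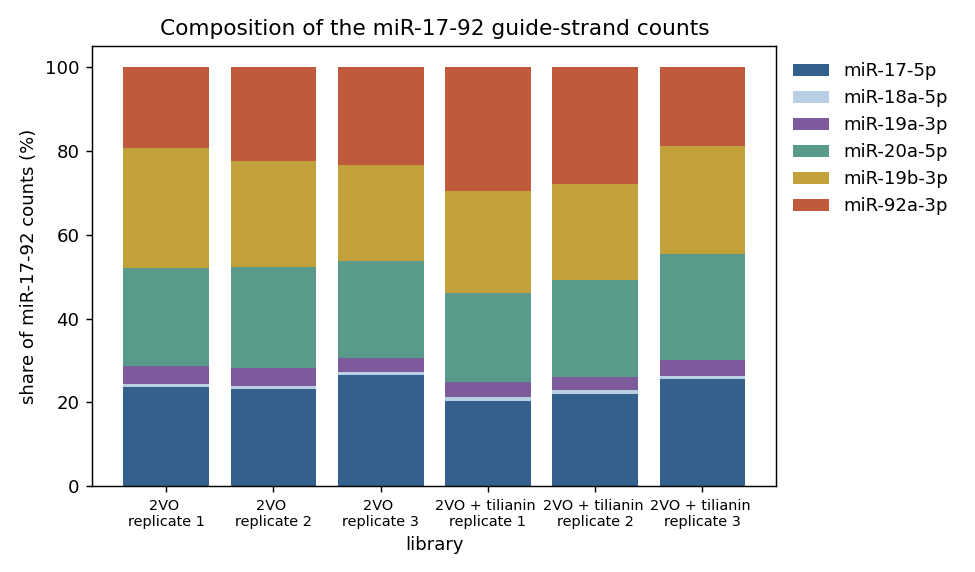
Share of each guide strand in the summed counts of miR-17-92 (%, stacked to 100) in each library. The counts of miR-17-5p, miR-19b-3p and miR-92a-3p include any reads from their X-linked copies. The bands of miR-17-5p, miR-20a-5p and miR-19b-3p are similar in width throughout, and that of miR-92a-3p runs from 18.9% to 29.5%, with both ends in the tilianin group.

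Over the 6 libraries, miR-17-5p and miR-20a-5p varied together (Pearson's r of log2(CPM + 1) = 0.93), as did miR-20a-5p and miR-19b-3p (0.91) and miR-19a-3p and miR-19b-3p (0.90). miR-92a-3p varied less with them, with r = 0.19 to miR-17-5p and 0.03 to miR-19a-3p, and most with miR-18a-5p (0.89). These are descriptions over 6 points that share their library sizes, and tilianin replicate 2 weighs on them. Among 265 other tested miRNAs with a mean of at least 10 CPM, the closest in pattern to miR-17-5p were miR-101b-3p (r = 0.97), miR-33-5p (0.94) and miR-99b-3p (0.89). The 2VO libraries held 295, 284 and 264 CPM of miR-101b-3p, for example, and the treated ones 199, 379 and 336 CPM. Like miR-17-5p, it was lowest in tilianin replicate 1 and higher in the other 2 treated libraries than in any 2VO library. The closest to miR-92a-3p were miR-26b-3p (0.98), let-7i-5p (0.96) and miR-204-5p (0.95), which was at 1064 CPM in tilianin replicate 2. miR-25-3p does not vary and has no closest pattern.

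The other arms of the hairpins were also counted, and they were far less abundant than the guides. Together with the X-linked cluster, 20 further miRNAs were looked for, of which 17 are listed in the counts (miR-106a-5p, miR-106a-3p and miR-18b are not), 9 had 0 counts in all libraries and 5 were tested. Of these 5, 0 passed the criterion in either direction by edgeR's quasi-likelihood test, by its exact test, by DESeq2's Wald test or by limma-voom, and 0 did so with the fold change left out of the criterion. miR-17-1-3p was the most abundant, with 44 to 72 counts per library and a log2 difference of 0.14 (standard error 0.243). miR-20a-3p had 18 to 60 counts and a difference of -0.27 on the same scale (standard error 0.362). miR-18a-3p was the only one whose CPM did not overlap between the groups, beside 44 of the 454 tested miRNAs (9.69%). It rested on 2, 3 and 2 counts in the 2VO libraries and 4, 3 and 5 in the tilianin libraries. Its log2 difference was 1.05, with a standard error of 0.558 and an adjusted p = 0.746 (edgeR's quasi-likelihood test, Benjamini-Hochberg). Over all tested miRNAs, 26 of 454 (5.73%) passed the criterion, and nothing particular to these 5 is read from either count.

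As a share of the counts of both arms over the 6 libraries, miR-18a-3p took 13.9% (Wilson 95% interval 9.06% to 20.6%), miR-17-1-3p 9.79% (8.87% to 10.8%), miR-20a-3p 5.37% (4.67% to 6.17%) and miR-19a-5p 2.74% (1.67% to 4.47%). miR-19b-1-5p and miR-92a-1-5p took 0.142% (0.0606% to 0.331%) and 0.153% (0.0654% to 0.358%). Pooled over the libraries, the intervals of the first 4 lay above those of the last 2. In single libraries the order did not always hold, since miR-19a-5p ranged from 0% to 5.97% on 0 to 6 counts and miR-92a-1-5p from 0% to 0.670% on 0 to 4 counts. The shares of miR-17-1-3p, miR-19b-1-5p and miR-92a-1-5p are those against a guide that a second hairpin also makes. The intervals cover counting error only, and the share of miR-17-1-3p ranged from 8.03% to 15.03% between libraries.

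Of the listed arms that only the X-linked hairpins make, miR-20b-5p was the single one with counts, and miR-17-2-3p, miR-19b-2-5p, miR-92a-2-5p, miR-363-3p, miR-363-5p and miR-20b-3p had none in any library. miR-20b-5p, which differs from miR-17-5p at 2 of 23 positions, had 4, 5 and 0 counts in the 2VO libraries and 0, 3 and 2 in the tilianin libraries, with a log2 difference of -0.40 and a standard error of 1.18. Among the second arms of miR-106b-25 and miR-92b, miR-106b-3p had 2 counts in total, and miR-25-5p, miR-93-3p and miR-92b-5p had 0. Both of these loci, like the X-linked cluster, are on the minus strand, and the limits given above for minus-strand miRNAs hold for them.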

How the data were processed

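Small RNA was sequenced from 6 rat brain libraries, 3 of the 2VO group and 3 of the tilianin group. The authors deposited raw counts of reads per mature miRNA, without normalization. The submitters' processing notes name FastQC 0.11.2, Trimmomatic 0.36, cutadapt 1.14 and DESeq2 1.12.4, with no role or order. The genome build, the reference of miRNAs and the programs for alignment and counting are not given in the sources used here. Libraries were grouped by their labels, and the 2VO library labelled replicate 3 carries the number 4 in its code.

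Of 775 miRNAs, the 454 whose counts summed to 10 or more were scaled by TMM and compared with the quasi-likelihood test of edgeR 4.0.16 (R 4.3.3), with group as the single term and Benjamini-Hochberg adjustment over all 454. The study's methods give the criterion but no test. Approximate standard errors were computed as the log2 fold change over the square root of F. Pairs of neighbours in the observed order of levels were compared by exact sign-flip permutation on log2(CPM + 1), with a pseudocount of 1. Correlations of deviations from the group means were -0.12, 0.01 and 0.30 for the 3 shared replicate numbers, so that the numbers were not taken to pair the libraries. Alternatives were DESeq2 1.42.0 size factors and Wald test, library totals, limma-voom (limma 3.58.1), edgeR's exact test, other filters, a replicate block and fits without each single library. The scripts were tested on simulated data. The miRNAs and lists were chosen with earlier results of these data known. All 10 miRNAs, their hairpins' other arms, the X-linked cluster, miRNAs with the same seed and, for miR-17-5p, miR-92a-3p and miR-25-3p, the 3 closest patterns were named. Identical rows counted once and the comparison by strand were added after the data were seen.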

Additional observations from a re-analysis of the deposited data

How the results depend on the processing

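Under every setting tried, 0 of the tested guide strands passed the criterion and 0 had an unadjusted p below 0.05, with edgeR's tests, DESeq2's Wald test and limma-voom alike. The lowest p of any of them was 0.0632, for miR-92a-3p with 1 library left out (edgeR's quasi-likelihood test). Their log2 fold changes kept their sign in 48 of 48 comparisons with other scalings, tests, filters or the block and in 30 of 36 with a library left out. The changes of sign, each with a single library left out, were those of miR-17-5p (-0.0632 to 0.291), miR-19a-3p (-0.268 to 0.0811) and miR-19b-3p (-0.0741 to 0.249), and among the other miRNAs of the clusters those of miR-19a-5p (-2.25 to 0.13) and miR-20b-5p (-1.25 to 0.24). Leaving out a library makes the groups smaller, and the cause of these changes was not tested. The median of the 6 ranged from 0.02 to 0.33.

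Over all tested miRNAs, 21 were higher and 5 lower at the criterion. The count of higher miRNAs was 6 by limma-voom, 9 with the replicate block and 7 to 29 with a library left out. That of lower miRNAs was 8 with library totals, 3 by DESeq2's Wald test, 3 by limma-voom, 2 with filterByExpr and 2 to 5 with a library left out. The count at an unadjusted p below 0.05 was 17 with the block and 17 by limma-voom, against 33, and 9 to 53 with a library left out. An adjusted p under 0.05 was reached by 3 miRNAs with DESeq2's Wald test, 3 with edgeR's exact test, 1 without tilianin replicate 1 and 4 without tilianin replicate 2, none of them a guide strand of miR-17-92. With the block, 0 of the guide strands passed the criterion. Of the 10 ranks by level, 5 were kept in the tilianin libraries alone, where miR-93-5p, miR-92b-3p and miR-25-3p were tied at 0. Without a library, 2 to 4 of the 6 closest patterns were kept. miR-18a-5p, its second arm, miR-19a-5p and miR-20b-5p rest on at most 32 counts in a library, and no difference could be tested for the 4 paralogues.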

Other observations

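Other abundant miRNAs of the minus strand, chosen after their values were seen, were let-7i-5p (346059 counts over the 6 libraries), miR-27a-3p (185709) and miR-23b-3p (182456). Among the 10 miRNAs matched to both strands, 9 had at least 10 counts, miR-17-5p, miR-19b-3p and miR-92a-3p among them.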
